A study of Mus musculus with 15 samples.

Results

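The genes described here encode subunits of the mitochondrial respiratory chain and of ATP synthase, with a few assembly factors whose names begin in the same way. A gene was taken if the single symbol of its array probe, after old names had been updated, began with Nduf, Sdha, Sdhb, Sdhc, Sdhd, Uqcr, Cox4, Cox5, Cox6, Cox7, Cox8 or Atp5. A probe was kept where 4 or more arrays had a value in each of the dye orientations. That left 39 genes on 43 probes, of 84 such genes on 93 probes, among 4372 named genes and 8058 probes tested in all. A further 9 probes of the family carried several symbols and were not used.

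The respiratory chain passes electrons along the inner mitochondrial membrane to oxygen. Complex I takes them from NADH, complex II from succinate, complex III hands them to cytochrome c and complex IV, cytochrome c oxidase, reduces oxygen. Complexes I, III and IV pump protons, and ATP synthase, also called complex V, lets the protons flow back through a ring of c subunits whose turning drives ATP synthesis in its F1 head. Neurons meet most of their demand for ATP in this way. Most subunits are encoded in the nucleus, and only nuclear genes are described here.

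The c subunit is encoded by Atp5g1, Atp5g2 and Atp5g3, which give the same mature protein and differ in the leader peptide that guides it into mitochondria. Their probes gave unlike readings, described further on. The DNA just upstream of Atp5g1 and Atp5g2 is shown as a description, and its part in those readings was not tested. The sequences are from RefSeq, build GRCm38.p6, and both genes lie on the minus strand. The Atp5g1 stretch is chr11:96075695-96075881, 187 bases, and that of Atp5g2 is chr15:102671048-102671297, 250 bases. Each is written 5′ to 3′ and ends at the last base before the annotated gene. Capitals mark 10 bases that hold the core of the binding motif of NRF1, a transcription factor known for its sites in promoters of respiratory genes, on both strands at once.
Atp5g1: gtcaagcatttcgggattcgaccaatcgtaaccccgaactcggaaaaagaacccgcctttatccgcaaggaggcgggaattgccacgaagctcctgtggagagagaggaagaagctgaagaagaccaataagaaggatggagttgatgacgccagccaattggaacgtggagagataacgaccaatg
Atp5g2: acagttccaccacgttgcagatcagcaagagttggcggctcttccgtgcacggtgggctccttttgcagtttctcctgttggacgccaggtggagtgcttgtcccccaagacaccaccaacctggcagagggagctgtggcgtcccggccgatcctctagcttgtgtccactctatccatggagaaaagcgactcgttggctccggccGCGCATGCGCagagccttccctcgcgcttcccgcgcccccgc
The last of the marked bases of Atp5g2 lies 33 bases upstream of the gene, and the Atp5g1 stretch held none of the 4 motifs searched. The window of Atp5g3 lies inside the annotated gene and is not printed.

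Brains of O377 homozygotes, from a mouse line with an altered allele of the lens crystallin gene Crybb2, were set against wild-type brains on 15 arrays that each took RNA labelled in 2 colours. Channel 2 held RNA of 5 numbered mutant brains and channel 1 a pool of 4 wild-type brains, so the control is 1 sample and its spread between animals is left out. The mutant dye was Cy5 on 7 arrays, and on the remaining 8 it was Cy3. The sources used here give no strain, sex or age, and do not say which brain lay on which array or whether the mutant RNAs were pooled. The p-values below thus set each estimate against the scatter between arrays, and that scatter may be technical. Whole brain holds many cell types, and fewer cells of a type and less RNA per cell cannot be told apart.

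Each value is a log ratio per probe and array, taken as log2. Its direction is not stated: the numerator may be the mutant on every array, or the Cy5 channel. Every probe is therefore described by a pair of quantities. The dye-switching component is the mean with mutant RNA in Cy5 minus the mean with mutant RNA in Cy3, divided by 2. With Cy5 as the numerator, this is the genotype difference, positive where the mutant is higher. The shared component is the mean of both orientation means. With the mutant as the numerator, this one is the genotype difference, and the dye-switching component is then the dye effect.

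Between 7843 and 10515 probes had a value per array. The spread of values was widest on array 10, with an interquartile range of 0.892, and on array 9, with 0.731, beside at most 0.578 on any other array. Of the 43 probes, 29 had a value on every array, and the fewest was 8 arrays. Of the family's 93 probes 46.2% had enough values, beside 39.9% of all probes on the array. Some subunits known to be abundant had few values. Atp5b, which encodes the catalytic beta subunit of ATP synthase, had values on 2 arrays, and Cox8a, the common form of a cytochrome c oxidase subunit, on 1, whereas Cox8c, known from testis, had 1 on all 15. Of the 6 complex IV genes known from other tissues 2 were tested, Cox8c and Cox7a1, and Cox6a2, Cox7b2, Cox8b and Cox6b2 had values on 1, 1, 4 and 7 arrays. A tested probe was held by 6 of 10 neuron marker genes on the array and by 1 of 4 brown fat markers. It was held by 6 of 8 skeletal muscle markers, which include Pvalb, also known from interneurons. For astrocytes, oligodendrocytes, microglia and erythrocytes the counts were 3 of 7, 2 of 6, 2 of 5 and 1 of 2 marker genes. A ratio gives no level.

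Atp5g2, 1 of the 3 genes for the c subunit, changed in the dye-switching component. With mutant RNA in Cy5 its log ratios were 0.96, 0.82, 0.60, 0.57, 1.45, 0.42 and 0.40 on arrays 1, 2, 5, 6, 9, 10 and 13. With mutant RNA in Cy3 they were -0.94, -0.62, -0.59, -0.56, -0.27, -0.32, -0.48 and -0.85 on arrays 3, 4, 7, 8, 11, 12, 14 and 15. All values of the first kind lay above 0 and all of the second kind below 0, and the orientations did not overlap. The means were 0.75 ± 0.37 (SD, n = 7) and -0.58 ± 0.23 (SD, n = 8).

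The dye-switching component of Atp5g2 was 0.66 ± 0.08 (SE), or 1.58-fold, with a limma adjusted p of 0.000176. Atp5g2 was the 1 of 43 probes of the family past the threshold, adjusted p under 0.05, where 0.645% of all tested probes passed. It was also the only member whose orientations did not overlap, which held for 0.906% of all tested probes. With Cy5 as the numerator, Atp5g2 RNA was higher in the mutant. With the mutant as the numerator, its probe differed by dye. The shared component of Atp5g2 was 0.08 ± 0.08 (SE), adjusted p = 0.733.

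The difference was present in each stretch of the array series. Taken within arrays 1 to 4, 5 to 8, 9 to 12 and 13 to 15, the dye-switching component of Atp5g2 was 0.84, 0.58, 0.61 and 0.53. Its adjusted p was 0.124 when each of these runs gave 1 value, an alternative added once results were known. The call is then lost at 4 values per probe, with the component at 0.64. In that fit 2 probes in all passed, beside 52 in the main fit. Without arrays 9 and 10, those of widest spread, the Atp5g2 component was 0.63 with an adjusted p of 0.000246. Among markers of cell types in this component, 1 of 6 neuron probes passed, Thy1, a neuronal surface protein, at -0.53 ± 0.11 (SE), adjusted p = 0.0276, and the neuron list's median was 0.02. Of 17 probes for astrocytes, oligodendrocytes, microglia, skeletal muscle, brown fat and erythrocytes, 0 passed in limma and 2 had an unadjusted p under 0.05. Over all tested probes 0.645% passed in this component and 9.57% had an unadjusted p under 0.05. The part of Thy1-expressing cells in the Atp5g2 value was not tested.

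**Figure D1:**
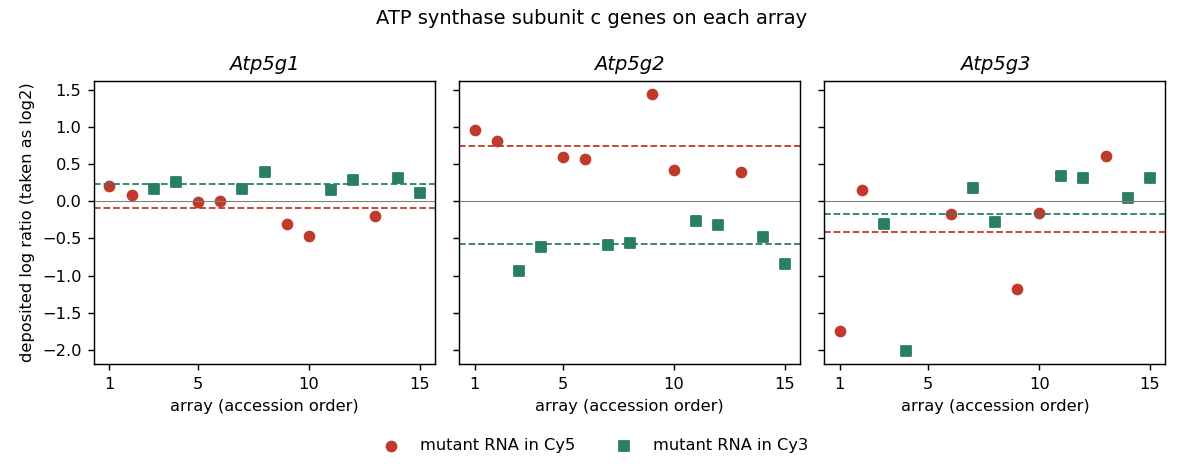
Deposited log ratio (taken as log2) of Atp5g1, Atp5g2 and Atp5g3 on each of 15 arrays in accession order. Red circles are arrays with mutant RNA in Cy5, green squares arrays with mutant RNA in Cy3, and dashed lines are the means per orientation. The circles of Atp5g2 run from 0.40 to 1.45 and its squares from -0.94 to -0.27, while the orientations of Atp5g1 and Atp5g3 overlap.

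In the other c subunit genes the orientations overlapped. The log ratios of Atp5g1 ran from -0.46 through a median of -0.01 to 0.21 with the mutant in Cy5. With the mutant in Cy3 they ran from 0.11 through 0.22 to 0.40. In Atp5g1 they overlapped only through array 1, at 0.21, since all other Cy5 values lay below the lowest Cy3 value. The dye-switching component of Atp5g1 was -0.17 ± 0.06 (SE), opposite in sign to Atp5g2, with an unadjusted p of 0.00868 and a limma adjusted p of 0.294. Over the same 4 runs of arrays the same quantity was -0.03, -0.15, -0.30 and -0.21.

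Atp5g3 was the least steady of the 3 genes. It ran from -1.75 through -0.16 to 0.61 with the mutant in Cy5 and from -2.02 through 0.11 to 0.34 with the mutant in Cy3. Arrays 1, 4 and 9 were far below the rest, and array 5 had no value. The dye-switching component was -0.12 ± 0.20 (SE) and the shared component -0.30 ± 0.20, which became -0.16 without either array 1 or array 4.

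Differences between genes on the same array are given as a description, since Atp5g2 was singled out for its pattern. Atp5g2 minus Atp5g1 averaged 0.84 ± 0.42 (SD, n = 7) on the Cy5 arrays and -0.81 ± 0.22 (SD, n = 8) on the Cy3 arrays of the mutant. It was above 0 on 7 of 7 and below 0 on 8 of 8 arrays, and the difference of the means divided by 2 was 0.83. Atp5g2 minus Atp5g3 averaged 1.19 ± 1.20 (SD, n = 6) and -0.40 ± 0.77 (SD, n = 8), a difference of 0.80 once divided by 2. It was above 0 on 5 of 6 and below 0 on 7 of 8 arrays. The sources used here do not say how well the probes tell the 3 similar transcripts apart.

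In the F1 head of ATP synthase, where ATP is made, 3 of 5 genes on the array were measured on 4 probes. None passed in either component, near the share of all tested probes, 0.645% in the dye-switching and 0% in the shared component. Atp5e, the small epsilon subunit, had values on 8 arrays. With the mutant in Cy5 they were 0.90, 1.07, -0.05 and -0.07, and with the mutant in Cy3 -0.91, 0.07, -0.01 and -0.64. Its dye-switching component was 0.42 ± 0.17 (SE), unadjusted p = 0.0344 and limma adjusted p = 0.472, and the orientations overlapped near 0. Atp5d, the delta subunit of the central stalk, had a shared component of 0.22 ± 0.09 (SE), above 0 on 12 of 15 arrays, with an adjusted p of 0.472. Atp5a1, the alpha subunit, had probes that did not match in sign. Its dye-switching components were -0.08 ± 0.08 (SE) and 0.18 ± 0.10, the latter from 10 arrays.

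Of the stalk and the small membrane subunits, 4 of 8 genes were measured. None passed, beside 0.645% (dye-switching) and 0% (shared) of all tested probes. The dye-switching components of these 4 were all negative, with a median of -0.09, where 52.8% of all tested probes were positive. Atp5j, the coupling factor F6 of the outer stalk, ran from -2.70 through -0.38 to 0.32 with the mutant in Cy5 and from -0.38 through 0.16 to 0.72 with the mutant in Cy3. The lowest of these, array 2, lay far from the rest. The component of Atp5j was -0.40 ± 0.18 (SE), adjusted p = 0.508. Without array 2 it was -0.23, and with robust regression, which gives far values less weight, it was -0.28 with an adjusted p of 0.016. The other 3 genes, Atp5md, Atp5o (the oligomycin sensitivity subunit at the top of the outer stalk) and Atp5pb (its b subunit), lay between -0.09 and -0.08.

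Complex I, the largest of the family, gave 18 probes. None passed in either component, near the 0.645% (dye-switching) and 0% (shared) of all tested probes. The median of the complex I probes was 0.03 in the dye-switching and 0.01 in the shared component. Of the core subunits, which carry the redox centres, Ndufs8 and Ndufv1 were measured. Ndufs8, which binds iron-sulfur clusters, ran from -0.48 through 0.32 to 0.59 with the mutant in Cy5 and from -0.13 through 0.14 to 0.41 with the mutant in Cy3. Array 9 was the low value, and 11 of 15 arrays lay above 0. The shared component of Ndufs8 was 0.19 ± 0.07 (SE), unadjusted p = 0.0194 and limma adjusted p = 0.462, and with robust regression 0.22 with an adjusted p of 0.0407. Without array 9 it was 0.25, with an adjusted p of 0.145. Ndufv1, the subunit that binds NADH, was at -0.02 ± 0.08.

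The supernumerary subunits, which surround the core and take part in its assembly and stability, were measured on 14 probes of 12 genes. Ndufb8, of the membrane arm, lay above 0 on 13 of 15 arrays, from -0.01 through 0.15 to 0.84 with the mutant in Cy5 and from 0.01 through 0.14 to 0.24 with the mutant in Cy3. Its shared component was 0.18 ± 0.06 (SE), unadjusted p = 0.0114 and limma adjusted p = 0.418, and ran from 0.12 to 0.20 when 1 array was left out. The highest Ndufb8 value, 0.84, was that of array 10, the array of widest spread. Ndufs4, a subunit whose loss in mice is known to cause a disease like Leigh syndrome, had 3 probes, and they lay close together. Their dye-switching components were 0.04, 0.02 and -0.08 and their shared components -0.07, -0.10 and -0.06, each with an SE between 0.05 and 0.12. The widest dye-switching components were those of Ndufc1, at 0.43 ± 0.26 (SE) on 10 arrays, and Ndufa12, at -0.31 ± 0.36 on 9 arrays. Both rested on few arrays and had large errors, and without array 11 the Ndufc1 component was 0.21.

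Assembly factors form no part of the finished enzymes. Ndufaf7, a methyltransferase that acts on a core subunit of complex I, lay below 0 on 12 of 15 arrays. It ran from -0.67 through -0.16 to -0.04 with the mutant in Cy5 and from -0.57 through -0.16 to 0.16 with the mutant in Cy3. Its shared component was -0.20 ± 0.07 (SE), unadjusted p = 0.00746 and limma adjusted p = 0.386. Ndufaf8 was at 0.01 ± 0.07 in that component. No subunit of complex II was measured often enough. Of its assembly factors, Sdhaf1 had a dye-switching component of -0.11 ± 0.06 (SE) and Sdhaf4 of 0.02 ± 0.10.

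Complex III was represented by 4 of 8 genes, and none passed, beside 0.645% (dye-switching) and 0% (shared) of all tested probes. Uqcrq, a small subunit, had the widest components, 0.11 ± 0.13 (SE) dye-switching and 0.21 ± 0.13 shared, from 11 arrays. Without array 2 the shared component of Uqcrq was 0.10. Uqcrfs1, the Rieske iron-sulfur protein, was at -0.02 ± 0.07 and 0.06 ± 0.07, and Uqcrc2, a core protein, at -0.09 ± 0.05 and -0.09 ± 0.05. No subunit of complex III had an unadjusted p under 0.05 in either component, beside 9.57% (dye-switching) and 9.49% (shared) of all tested probes.

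In complex IV the shared component was positive for 5 of 6 probes of the common subunits, beside 48.4% of all tested probes. Of these 6 probes 0 passed in it, as did 0% of all tested probes. Cox7b, an X-linked small subunit, had the smallest p of the family in that component. Its log ratios with the mutant in Cy5 were 0.16, 0.26, 0.27, 0.30, -0.08, 0.80 and 0.28 on arrays 1, 2, 5, 6, 9, 10 and 13. With the mutant in Cy3 they were 0.42, 0.23, 0.23, -0.09, 0.57, 0.43, 0.23 and 0.89 on arrays 3, 4, 7, 8, 11, 12, 14 and 15. The orientations overlapped throughout, and 13 of 15 arrays lay above 0.

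The shared component of Cox7b was 0.32 ± 0.07 (SE, 95% confidence interval from 0.17 to 0.48), or 1.25-fold, with an unadjusted p of 0.00046 and a limma adjusted p of 0.325. With robust regression it was 0.30, adjusted p = 0.0146. Within the 4 runs of arrays the Cox7b mean of both orientations was 0.27, 0.18, 0.43 and 0.42. The dye-switching component of Cox7b was -0.04 ± 0.07. With the mutant as the numerator the shared component is the genotype difference, and Cox7b did not pass in it.

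Cox7a2l, which helps join complexes III and IV into supercomplexes, had the dye-switching component largest in size among the common subunits, without passing in limma. It ran from -0.50 through -0.22 to 0.51 with the mutant in Cy5 and from -0.03 through 0.32 to 0.58 with the mutant in Cy3. The single high Cy5 value, 0.51, was that of array 10. The dye-switching component was -0.21 ± 0.07 (SE), unadjusted p = 0.0102 and limma adjusted p = 0.324, and with robust regression -0.24 with an adjusted p of 0.0451. The remaining common subunits were Cox5a, at 0.17 ± 0.08 dye-switching, Cox6b1, at -0.06 ± 0.07, and Cox4i1, whose probes stood at -0.01 ± 0.07 and 0.12 ± 0.10.

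**Figure D2:**
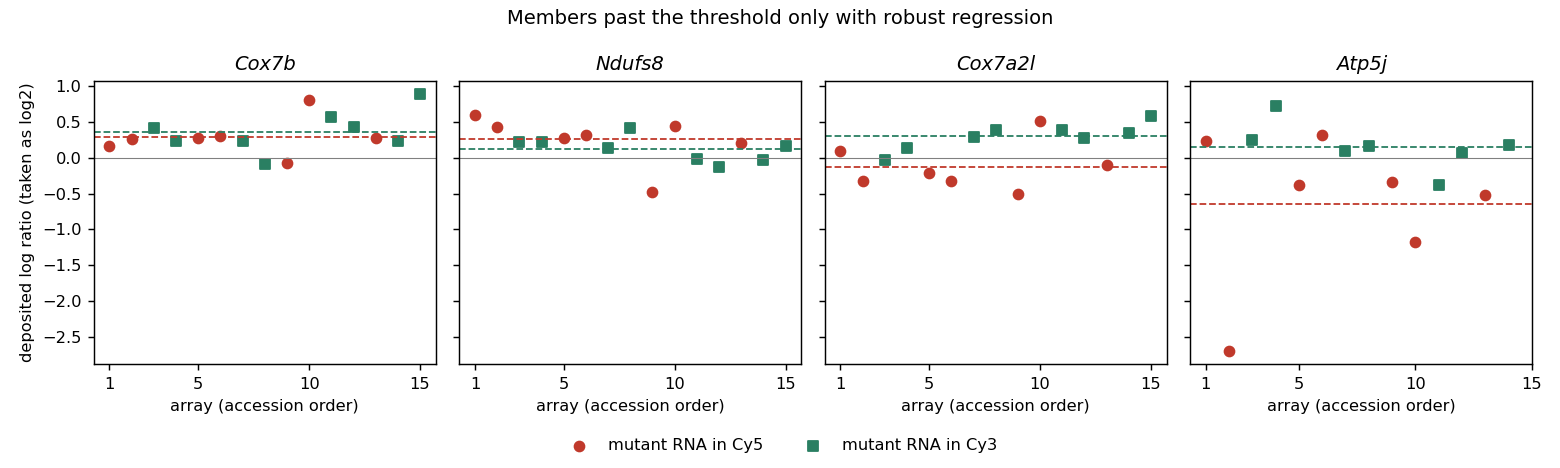
Deposited log ratio (taken as log2) of Cox7b, Ndufs8, Cox7a2l and Atp5j on each of 15 arrays in accession order, with mutant RNA in Cy5 (red circles) or Cy3 (green squares) and the mean per orientation as a dashed line. Both orientations of Cox7b lie mostly above 0, and the lowest Atp5j value is -2.70, on array 2.

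The forms of complex IV subunits known from other tissues did not pass either, beside 0.645% (dye-switching) and 0% (shared) of all tested probes. Cox7a1, the heart and muscle form, had a shared component of 0.10 ± 0.06 (SE). Cox8c, the testis form, was at -0.34 ± 0.15, unadjusted p = 0.0428 and limma adjusted p = 0.516, and ran from -2.16, on array 1, to 0.34. Without array 1 the shared component of Cox8c was -0.18. The 6 tested skeletal muscle probes missed the threshold as well, with a list median of -0.01 in both components. In the shared component 3 of these 6 had an unadjusted p under 0.05, beside 9.49% of all tested probes, and they differed in sign: Tnnc2 at 0.39, Atp2a1 at 0.18 and Myh1 at -0.20. Their part in the Cox7a1 value was not tested.

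Over the whole family the probes lay on both sides of 0. In the dye-switching component 22 of 43 (51.2%) were positive, beside 52.8% of all tested probes. The members' median was 0.01 and the range -0.40 to 0.66, and the median of all tested probes was 0.01 as well. An unadjusted p under 0.05 was reached by 5 of 43 (11.6%), beside 9.57% of all tested probes. In the shared component 27 of 43 (62.8%) were positive, beside 48.4% of all tested probes. The members' median was 0.05 beside -0.00 for all tested probes, and the range -0.34 to 0.32. There 0 of 43 passed in limma and so did 0% of all tested probes, while 6 of 43 (14%) had an unadjusted p under 0.05, beside 9.49% overall. Without Atp5g2 the share in the dye-switching component was 9.52%, near that of the array as a whole. With robust regression 3 of 43 passed in the dye-switching component, Atp5g2, Atp5j and Cox7a2l, where 2.53% of all tested probes passed. In the shared component it called Cox7b and Ndufs8, 2 of 43, where 1.33% passed overall.

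**Figure D3:**
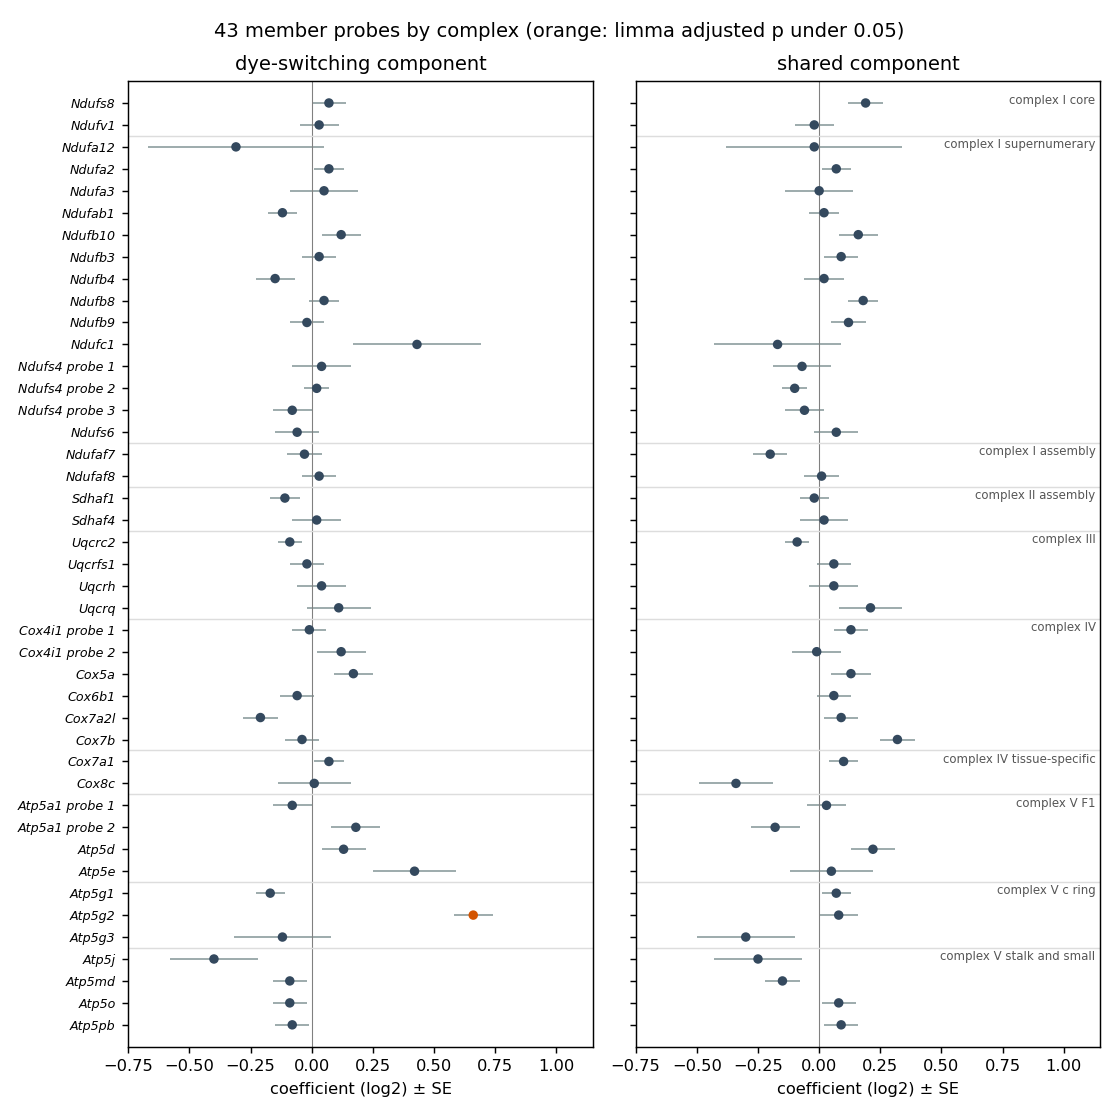
Dye-switching (left) and shared (right) component of each of 43 probes, in log2 units with the standard error as a bar, ordered by complex. Atp5g2, at 0.66 on the left, is the single orange point, limma adjusted p under 0.05, and the other points lie between -0.40 and 0.43.

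The family's median also varied by array. It ran from -0.07 on array 9 to 0.20 on array 10, the arrays of widest spread. On array 15, 74.4% of the measured members lay above 0, beside 50.5% of all tested probes, and on array 9 40.5% did, beside 48.7%. These medians are small beside the spread of members on any array. Without arrays 9 and 10 the median shared component was 0.03.

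**Figure D4:**
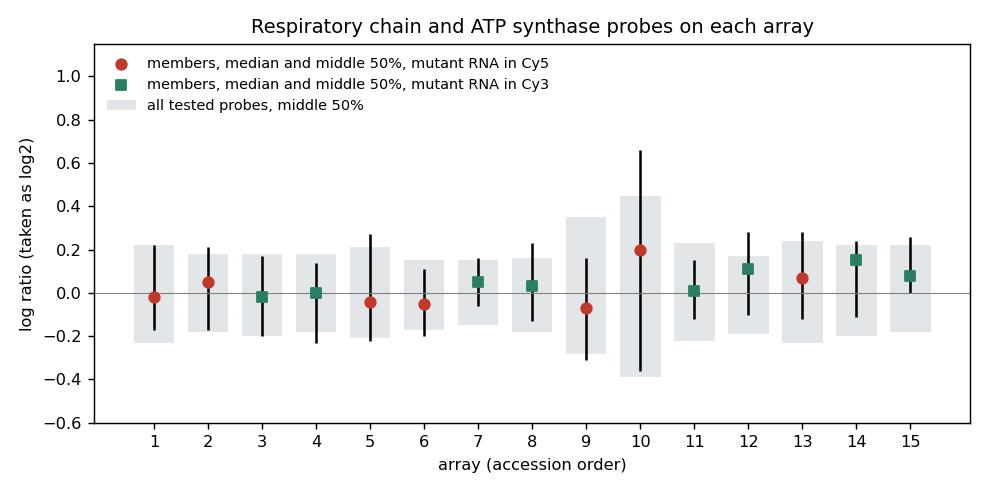
Median log ratio (taken as log2) of the respiratory chain and ATP synthase probes on each of 15 arrays, with the middle 50% of members as a black bar and that of all tested probes as a grey bar. Red circles have mutant RNA in Cy5 and green squares in Cy3. Member medians lie between -0.07 and 0.20.

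The genes that work with these enzymes are set beside shares of all tested probes of 0.645% past the threshold and 9.57% at an unadjusted p under 0.05 in the dye-switching component, and of 0% and 9.49% in the shared component. In lists this short, the absence of a call is near that background. Of the partners with other names, such as assembly factors, cytochrome c and carriers, 0 of 18 probes passed in limma in either component, with 4 (22.2%) at an unadjusted p under 0.05 in the dye-switching and 0 in the shared component. The nearest was Uqcc1, an assembly factor of complex III. It ran from 0.10 through 0.41 to 0.96 with the mutant in Cy5 and from -0.55 through -0.08 to 0.08 with the mutant in Cy3, without overlap. The dye-switching component of Uqcc1 was 0.30 ± 0.07 (SE), unadjusted p = 0.000606 and limma adjusted p = 0.0813. Ttc19, another factor of complex III, had the largest shared component of that list, -0.30 ± 0.15.

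The list of citric acid cycle and pyruvate genes gave 0 of 15 probes past the threshold in either component in limma. In each component 3 (20%) had an unadjusted p under 0.05. Pcx, pyruvate carboxylase, had the largest values, 0.41 ± 0.31 (SE) dye-switching and 0.46 ± 0.31 shared, from 10 arrays. Among its 5 values with the mutant in Cy5 the highest was 3.24 and the median 0.49. Mitochondrial biogenesis and import gave 0 of 24, with 3 (12.5%) at an unadjusted p under 0.05 in each component. Ppargc1b, a coactivator of nuclear genes for mitochondria, led with 0.27 ± 0.14 and 0.38 ± 0.14 on 1 of its probes, and another of its probes stood at 0.14 ± 0.06 and 0.08 ± 0.06.

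The promoters of the family were searched for motifs known from respiratory genes, in RefSeq windows of 250 bases before to 50 after each annotated start, on both strands. Of the 39 genes 32 had a window, and a gene counted where any of its windows held the motif. These 32 genes had 34 windows, and 3427 of the genes tested had 4395. The NRF1 core, GCATGCGC, was in 1 of 32 (3.12%), which is Atp5g2, beside 5.31% of all genes tested here and 3.94% of all protein-coding genes. Over the family genes on the array, kept or not, it was in 11 of 70 (15.7%). The core of YY1, AAGATGGC, a factor known to act on mitochondrial genes, was in 8 of 32 (25%), beside 5.52% of tested and 3.57% of all genes. Over the family genes on the array the YY1 core was in 11 of 70 (15.7%). The 8 holders among the kept genes were Atp5j, Atp5pb, Ndufa3, Ndufaf8, Ndufb8, Ndufc1, Ndufs4 and Ndufs6. None of them passed in limma, near the 0.645% (dye-switching) and 0% (shared) of all tested probes that did. The ETS core, CCGGAAG, bound by factors such as GABP, was in 8 of 32 (25%), beside 19% of tested and 12.9% of all genes. The Sp1 box, GGGCGG, was in 16 of 32 (50%), beside 67.4% of tested and 49.2% of all genes. Over the family genes on the array the ETS core was in 25.7% and the Sp1 box in 50%. Per window, the member and tested shares were 2.94% and 4.53% (NRF1), 23.5% and 4.48% (YY1), 23.5% and 16.4% (ETS) and 47.1% and 60.9% (Sp1). None of these motifs contains another, and a match describes letters in a window, not a bound site.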

How the data were processed

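RNA was compared on 15 arrays. Log ratios for each probe, here taken as log2, are as the authors deposited them; the sources used here give no base, direction, background correction or spot filter. Column medians lay between -0.00618 and 0.0165, so the arrays had been centred. Probes were named from the platform annotation, updated through gene identifiers to GRCm38.p6. The family, the lists and the tests were chosen with earlier results of these data known.

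Values were used as deposited. Probes with values on at least 4 arrays per dye orientation were fitted by dye orientation with limma 3.58.1 in R 4.3.3, with eBayes and Benjamini-Hochberg adjustment over all 8058 probes, with a threshold of 0.05. The fit was tested on simulated data with normal noise, independent between arrays. These held no far values and no arrays of wider spread, so the simulation does not cover those features. Motifs were counted in Python 3.11.15 and figures drawn with matplotlib 3.10.9.

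Named were members past the threshold or with an unadjusted p under 0.05, the largest per list and component, all c subunit and tissue-specific genes and genes with several probes, and for other lists the largest. Other members, family genes without a kept probe, marker genes and the second probe of Ppargc1b were named after their values were seen. Alternatives were centring, scaling, filters of 3 or 6 arrays, array weights, robust regression, values limited to between -2 and 2, leaving out arrays, runs of 4 arrays in accession order as a block, averaged probes, another prior and, added after seeing the data, 1 value per run. The number of arrays limits the precision.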

Additional observations from a re-analysis of the deposited data

Results flagged for a closer look

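Within each dye orientation the values of 23 named probes were searched for an array far from all others, in 46 sets. Such an array was found in 5 sets. The limit used, Dixon's 95% critical value, is set so that chance flags about 1 in 20 sets of normally distributed values, and whether these log ratios meet that condition was not tested. Among 8 values with mutant RNA in Cy3, Atp5g3 was -2.02 on array 4 and -0.31 at the next lowest. Among 6 such values, Ndufc1 was -2.75 on array 11 and -0.52 at the next lowest. Among 7 Cy5 values, Cox8c was -2.16 on array 1 and -0.32 at the next lowest. Among as many, Ndufaf7 was -0.67 on array 10 and Ndufs8 -0.48 on array 9, and the next lowest values were -0.27 and 0.21. The low values lay on 5 different arrays, which include arrays 9 and 10, those of widest spread. The cause of these values was not tested.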

How the results depend on the processing

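Each count and median was recomputed under 27 alternatives, 15 of which left out 1 array. The count of members past the threshold in the dye-switching component was 1 in each fit without 1 array, and that in the shared component 0. Robust regression gave 3 and 2, where 2.53% and 1.33% of all tested probes passed. With 1 value per run of 4 arrays the count was 0 in the dye-switching component. Over all probes 2 passed in that fit, beside 52 in the main fit. In it 3 of 41 members had an unadjusted p under 0.05 in limma, and the share over all probes was not computed. That fit rests on 4 values per probe, while the cause of the change under robust regression was not tested. The median of the members stayed between -0.02 and 0.02 (dye-switching) and between 0.02 and 0.06 (shared) without any 1 array. Atp5g2 passed in 26 of 27 alternatives, with a component from 0.60 to 0.69 and an adjusted p from 0.000161 to 0.000711 when 1 array was left out, and from 0.63 to 0.67 and 3.7e-05 to 0.124 otherwise. The shared component of Cox7b ran from 0.28 to 0.36 without any 1 array, with adjusted p from 0.131 to 0.468, and passed in robust regression only, of the alternatives run. No named probe that passed the threshold changed sign. No paired analysis was possible because array numbers come from accession order and there is 1 group.

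The direction and base of the deposited ratio remain unknown, so no genotype difference is settled here. The wild-type pool is 1 sample. Arrays are tied to no animal, so the spread between animals was not tested. Without intensities, dim and filtered spots look alike, and 45 genes of the family have no kept probe.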
